A study of Ovis aries with 2 samples.

Results

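SCD, ELOVL6 and MVK encode enzymes that build fatty acids and sterols, and each had 1 interval of PPARG signal in chromatin of the day 14 sheep conceptus. The intervals were chosen by gene name: they are the rows of the authors' interval table whose list of assigned genes names SCD, ELOVL6 or MVK. This gave 3 of the 2288 intervals of the PPARG library and none of the 5 intervals of the input library. The signal was moderate at all 3 sites, with heights of 21 at SCD, 19 at ELOVL6 and 27 at MVK, against a median of 22 over all PPARG intervals. The places differed: the MVK interval covered the starts of MVK and its neighbour MMAB, the ELOVL6 interval lay inside the gene, and the SCD interval lay past the gene.

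PPARG is a nuclear receptor that is activated by fatty acids and their derivatives and pairs with a retinoid X receptor on DNA. In adipocytes it drives lipid uptake and storage. New fatty acids are made in the cytosol as palmitate, which ELOVL6 lengthens to stearate, and SCD places a double bond in these products to give palmitoleate and oleate. MVK, mevalonate kinase, phosphorylates mevalonate on the way to isoprenoids and cholesterol. The main known regulators of these pathways are the SREBP transcription factors. The conceptus is the embryo with its extraembryonic membranes, and its outer epithelium, the trophectoderm, elongates in the uterus before it attaches.

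Chromatin came from 4 conceptuses of separate Columbia and Rambouillet crossbred ewes on day 14 of pregnancy, pooled per the labels. It gave 1 library precipitated with a rabbit polyclonal PPARG antibody and 1 input library of chromatin that was not precipitated, with no other treatment named. Pooling leaves no value for a single conceptus, so the values carry no error between animals, and ChIP and input were not tested against each other. These data hold no RNA, so the tissue could not be checked against expressed markers, and whether any of the genes is transcribed was not measured. Height is the highest signal in an interval in the authors' deposited units, and the mean signal is its average over the bins of the interval. The read depth of the libraries and the scaling between them are unknown. Positions are those of build Oar_v3.1 as the file gives them.

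MVK had the highest of the 3 intervals, and the only one at a gene start. It ran over 1001 bp on chromosome 17, from 63273386 to 63274387, with a height of 27 and a mean signal of 12.7. Of all PPARG intervals, 1489 were lower, 62 others had the same height and 736 were higher. The interval held 1 CpG island, a GC-rich stretch found at many promoters, and 2 promoters. Its summit lay 178 bp inside MVK and 243 bp upstream of MMAB, the gene of the adenosyltransferase that makes the coenzyme form of cobalamin. In human cells these neighbours are known to share a promoter region that responds to SREBP-2. The authors' distances place the sheep starts 65 bp apart if the genes run in opposite directions, and 421 bp apart if they run the same way. The strand is not in the table, but the interval covers both starts in either case. Its signal therefore cannot be given to one of the genes.

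Intervals of this kind were uncommon. Only 25 PPARG intervals (1.09%) had a summit within 1 kb inside one gene and within 1 kb upstream of another. All 25 held a CpG island. Their heights ran from 13 to 86 with a median of 23 and quartiles of 20 and 32. The MVK interval stood below 8 of them and above 16. Over the 423 intervals that carry a CpG island together with a promoter, the median height was 27, the height of the MVK interval itself.

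The ELOVL6 interval lay away from any marked promoter. It ran over 948 bp on chromosome 6, from 15320167 to 15321115, with a height of 19 and a mean signal of 10.1. There were 766 lower intervals, 95 others of the same height and 1426 higher ones. The summit lay 16133 bp past the gene start and inside the gene, with no CpG island, no promoter and no other gene assigned. Whether it falls in an exon or an intron is not given in the table. The 502 unmarked intervals inside a single gene had a median height of 21, with quartiles of 16 and 28, and lay a median of 34473 bp from the start. Of these, 39.6% were lower than the ELOVL6 interval and 28.5% were closer to their gene's start.

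The SCD interval was the shortest of the 3 and had the lowest mean signal. It ran over 768 bp on chromosome 22, from 20424243 to 20425011, with a height of 21 and a mean signal of 8.50. There were 976 lower intervals, 111 others of the same height and 1200 higher ones. The authors placed its summit downstream of the gene, 15307 bp from the start, with no CpG island, no promoter and no second gene. The 94 unmarked intervals downstream of a single gene also had a median height of 21, with quartiles of 15 and 28.8, and 35.1% of them were closer to their gene's start.

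In this library the ratio of height to mean signal differed between SCD and ELOVL6. The height was 2.47 times the mean signal at SCD, 2.12 times at MVK and 1.87 times at ELOVL6, against a median of 2.14 over all intervals. Signal at SCD was thus more concentrated at the summit than in 74.2% of intervals, and at ELOVL6 than in 24.6%. By height SCD stood above ELOVL6, and by mean signal below it. Summed over bins, the signal was 204 at SCD, 294 at ELOVL6 and 394 at MVK, and the median over all intervals was 294. With 1 library, neither the difference of 2 height units between SCD and ELOVL6 nor that in the ratio has a replicate error to be read against. These sites therefore cannot be ordered.

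**Figure D1:**
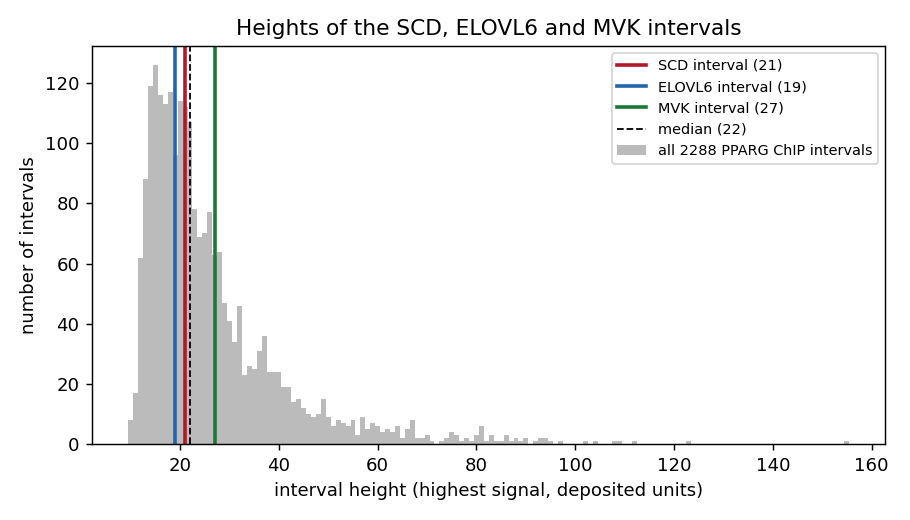
Number of PPARG ChIP intervals (y axis) at each height in deposited units (x axis), for all 2288 intervals. Coloured lines mark the intervals of ELOVL6 at 19, SCD at 21 and MVK at 27, and the dashed line marks the median of 22; all 3 lie in the body of the distribution and far from its upper end of 155.

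None of the 3 intervals shared a base with an input interval. The input library had no interval on chromosomes 17 and 22, and its 1 interval on chromosome 6 lay elsewhere. The table lists input signal for called input intervals only, so the input level at SCD, ELOVL6 and MVK is not known.

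The surroundings of the 3 intervals differed widely. SCD had 6 other PPARG intervals within 1 Mb of its summit, MVK had 5 and ELOVL6 had 0. The median over all intervals was 3, with quartiles of 1 and 6. At least 6 neighbours were found for 25.4% of intervals, and no neighbour for 11.1%.

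At SCD the nearest interval was also the highest of its neighbours. It reached 37, lay 31456 bp from the SCD summit and was assigned to PKD2L1, a cation channel gene of the polycystin family, 6161 bp upstream of that gene. In the RefSeq gene order of assembly ARS-UI_Ramb_v3.0, PKD2L1 is the named protein-coding gene next to SCD. A further interval of PKD2L1, with a height of 22, lay 31151 bp inside it. Together these intervals place the PKD2L1 start at 20386927. The start of SCD follows from its single interval only up to the strand, as 20409237 or 20439851. The PKD2L1 interval of 37 is then 16149 or 46763 bp from the SCD start. With the first start the site would lie upstream of SCD, and upstream assignments in the table reached no farther than 10470 bp. With the second start it would lie on the downstream side. The authors' rule of assignment is not known, so why this site was not assigned to SCD was not tested.

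The other SCD neighbours were lower. CHUK, which encodes an IkappaB kinase, had 26 at 98 bp upstream of its start, at a site that CWF19L1 shares. DNMBP, a scaffold protein gene for CDC42 signalling, had 13 inside the gene, 363 kb from the SCD summit. On the other side lay KAZALD1 with 25, at 612 kb, and LBX1, a homeobox gene, with 22 at 874 bp upstream of its start. Of the 10 named genes next to SCD in the RefSeq order, 5 on each side, 3 had an interval, beside 9.28% of all named genes. These were PKD2L1, CWF19L1 and CHUK, all on the same side, and CWF19L1 and CHUK share their interval. WNT8B, SEC31B, NDUFB8, HIF1AN and PAX2 on the other side had none.

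MVK had no other interval within 500 kb. The nearest was inside SPPL3, an intramembrane protease gene, with a height of 27 at 599 kb, followed by CORO1C, an actin-binding coronin gene, with 24 at 665 kb. The highest was 58, at 830 kb, and lay 119 bp inside COQ5, a methyltransferase gene of coenzyme Q synthesis, and 3384 bp upstream of RNF10. Coenzyme Q carries a side chain built from isoprenoids of the mevalonate pathway. The remaining 2 neighbours, with 28 and 26, had no gene assigned. Of the 10 named genes next to MVK, 1 had an interval, near the 9.28% of all named genes. That gene was MMAB, through the MVK interval itself.

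The ELOVL6 interval stood alone. Its nearest neighbour was 1949 kb away, a greater distance than for 95.2% of PPARG intervals, whose median was 131 kb. Of the 10 named genes next to ELOVL6, TIFA alone had an interval, near the 9.28% of all named genes. ENPEP and LRIT3, the named genes on either side, had none.

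**Figure D2:**
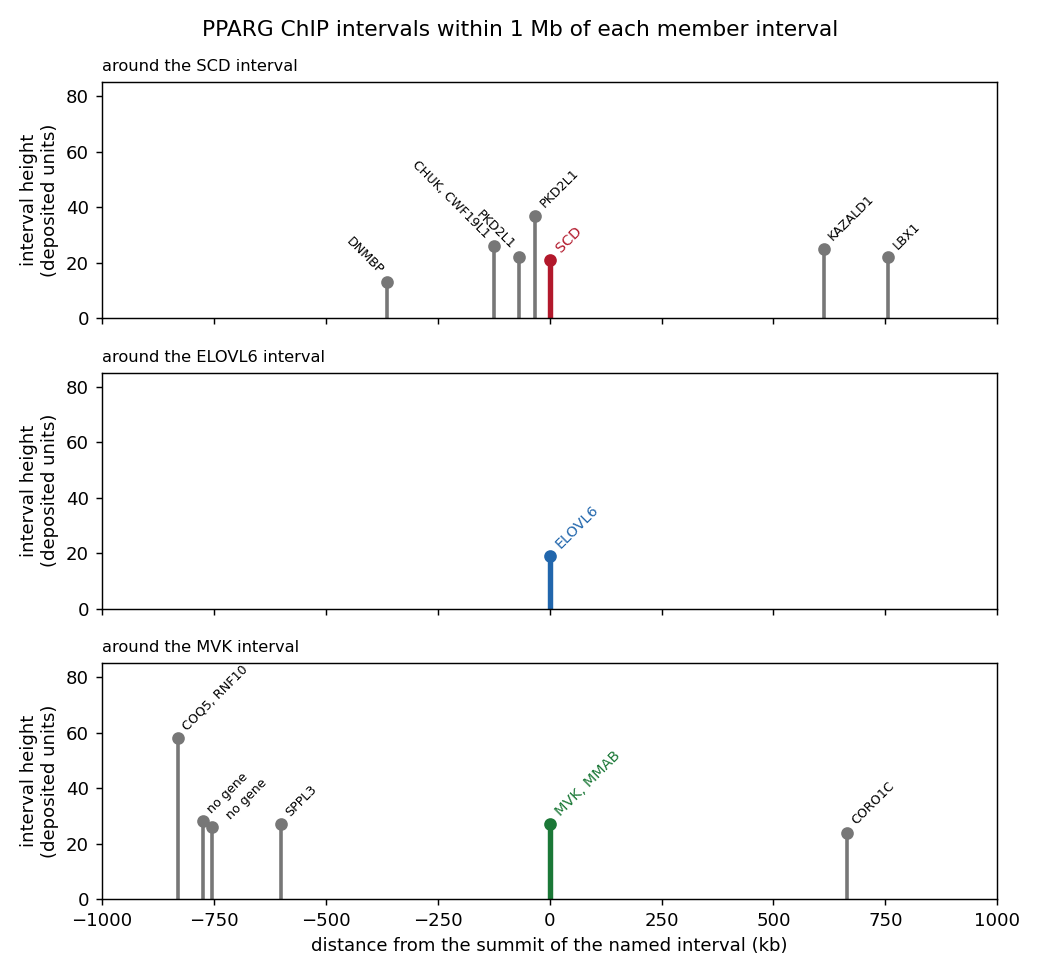
Height of PPARG ChIP intervals in deposited units (y axis) against distance from the summit of the SCD, ELOVL6 or MVK interval in kb (x axis), with 1 panel per gene, 1 line per interval and the assigned genes as labels. SCD has 4 intervals on its left within 500 kb, of which PKD2L1 reaches 37; ELOVL6 has none within 1 Mb; and MVK has none within 500 kb and COQ5 with 58 at the left edge.

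The enzymes around SCD, ELOVL6 and MVK were followed with 4 lists for lipogenesis, desaturation, elongation and sterol synthesis. Of 50 listed genes, 49 were found among the 16388 named protein-coding genes. Of these 49, 10 had an interval, beside 9.28% of all named genes. SCD, ELOVL6 and MVK are among these 10 by choice, so nothing is read from that count. Without them, 7 of 46 genes had one (15.2%, Wilson 95% interval 7.57 to 28.2), and the interval of this share covers the 9.28% of all named genes. The 7 include FADS1, FADS2 and FADS3, neighbours on chromosome 21, which the Wilson interval counts as separate genes. Within 1 kb of their own start, only MVK and FADS3 had an interval, 2 of 49 genes, beside 2.31% of all named genes. MVK was chosen for having an interval, so nothing is read from that count either. The 15 distinct intervals of the lists include those of SCD, ELOVL6 and MVK. Heights of the 15 ran from 12 to 29 with a median of 20. Of the 15, 5 reached the median of 22 over all intervals, beside 1200 of all 2288 intervals. The interval of MVK, there by choice, is among the 5. CpG islands were marked in 2 of the 15, those of MVK and ELOVL3, and in 24.8% of all intervals. Wilson intervals cover counting error over genes only.

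In sterol synthesis, 20 of 21 listed genes were found among the named genes. Of these 20, 1 had an interval, MVK, which was in the list by choice. None of the other 19 had one (0%, Wilson 95% upper limit 16.8%), a range that covers the 9.28% of all named genes. No interval was assigned to HMGCS1, an enzyme of an early step, or to PMVK or MVD, which act in the steps after MVK. SQLE and LSS, which turn squalene into the first sterol, had none either. Lipogenesis had 1 of 10 genes, close to the 9.28% of all named genes. The gene was OXSM, a ketoacyl synthase of mitochondrial fatty acid synthesis, with 13 at 7708 bp from its start and downstream. ACLY, ACACA and FASN, which supply and build palmitate in the cytosol, had no interval assigned.

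Elongation had 4 of 13 genes with ELOVL6, which was there by choice, and 3 of 12 without it, beside 9.28% of all named genes. The 3 were HSD17B12 and TECR, which reduce the intermediates of the elongation cycle, and ELOVL3, another elongase. HSD17B12 had 21 at 1014 bp inside the gene and 20 at 63222 bp. TECR had 24 at 2290 bp inside the gene, in an interval also assigned to TRNAC-GCA and LOC101117584. ELOVL3 had 12 at 3815 bp downstream of its start, in an interval also assigned to PITX3. HACD2, the dehydratase of the same cycle, was listed under its older symbol PTPLB, which the RefSeq table does not pair with it. HACD2 is therefore counted as a gene without an interval in these shares and in those of the 4 lists together. The PTPLB interval, on chromosome 1 from 186230028 to 186230953, lay 9578 bp inside the gene and had a height of 49, above 92.0% of all intervals and above every interval counted in the 4 lists. With older symbols matched, a step added after the data were seen, 11 of 50 genes of the 4 lists had an interval. The share over all named genes was not recounted with older symbols, so that count has no background beside it.

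Desaturation had 4 of 6 genes with SCD, which was there by choice, and 3 of 5 without it, beside 9.28% of all named genes. The 3 were the neighbours FADS1, FADS2 and FADS3, which desaturate polyunsaturated fatty acids or related chains and lie together on chromosome 21. The FADS genes had 7 intervals with heights from 12 to 29, 2 of them assigned to a pair of FADS genes. FADS1 was counted only through an interval that FADS2 shares, while FADS2 and FADS3 also had intervals of their own. As neighbours with shared intervals, the FADS genes are not independent of each other in that share. SCD had 1. SCD5, the other stearoyl-CoA desaturase, had none.

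Regulators of both pathways had intervals in 3 of 12 genes (Wilson 95% interval 8.89% to 53.2%), beside 9.28% of all named genes. SREBF1, which encodes the SREBP-1 factors, had 16 at 1506 bp inside the gene. SCAP, the sterol-sensing escort of the SREBPs, had 15 at 7698 bp upstream. MBTPS1, the protease that makes the first cut in the SREBPs, had 36 at 9929 bp upstream, at a site that HSDL1 shares. SREBF2, INSIG1, NR1H3 and MLXIPL had none.

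**Figure D3:**
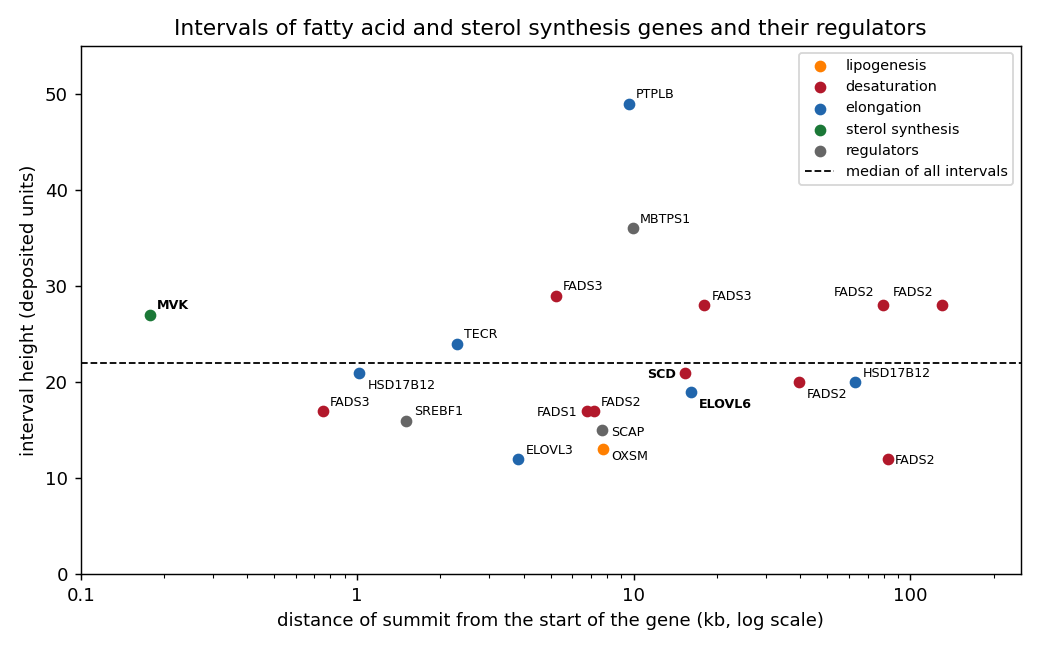
Height in deposited units (y axis) against distance of the summit from the start of the gene in kb (x axis, log scale) for each interval of the synthesis genes and their regulators, coloured by list, with 1 point per gene and interval. MVK at 27 lies closest to its start; SCD at 21 and ELOVL6 at 19 lie farther out, at 15307 and 16133 bp; PTPLB at 49 and MBTPS1 at 36 are the highest points, and the dashed line is the median of 22.

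Intervals like those of SCD, ELOVL6 and MVK were found elsewhere by a fixed measure: single-gene intervals with the same position, the same presence or absence of a CpG island and a promoter, and a height within 2 units, ranked by distance to the gene start on a log10 scale. For SCD the closest of 18 candidates were RNF135 with 19 at 16182 bp, F2RL1 with 23 at 16989 bp and IL17F with 20 at 18017 bp. For ELOVL6 the closest of 121 candidates were GRK7, LOC101106720 and PPM1D, each with 17, at 15633 to 16683 bp. The MVK interval has 2 genes and 2 promoters, so this measure leaves out the intervals at a pair of starts described above. For MVK there were 6 candidates, led by DDX3X with 25 at 190 bp and PRMT2 with 25 at 243 bp, and the next, MASP2 with 26, lay 824 bp inside the gene. The likeness is one of place and height in 1 library.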

How the data were processed

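The authors deposited a table of intervals for 1 PPARG ChIP-seq library and 1 input library, with the highest and mean signal of each interval. BWA and build Oar_v3.1 are named in the submitters' processing notes; the peak caller, threshold, read filters and scaling were not given in the sources used here. In the deposited table, mean signal multiplied by bins gave a whole number, within 0.01, for 100% of PPARG intervals. Gene assignments, distances and marks are the authors' own.

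Gene names in the table were split at commas and matched exactly in Python 3.11.15 with pandas 2.3.3. Intervals of shares are Wilson 95% intervals from scipy 1.17.1. Gene names were matched to symbols or synonyms of the RefSeq table of assembly ARS-UI_Ramb_v3.0, which matched 1521 of 1833 names and served only for names and gene order. Input overlap meant at least 1 bp. No test was run, because each group has 1 library. The splitting of gene names and the count of neighbours were checked on simulated data, and the other counts were not. Genes named are SCD, ELOVL6 and MVK, genes sharing their intervals or lying within 1 Mb, list genes with an interval and the 3 nearest in place and height; genes named as having no interval, and genes beside them in RefSeq order, were added afterwards. The genes and lists were chosen with earlier results of these data known. Alternatives covered height thresholds, distance, input overlap, gene sharing and window size.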

Additional observations from a re-analysis of the deposited data

How the results depend on the processing

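The rank of a height depended on the measure. By mean signal, 19.8% of intervals stood below SCD, 46.8% below ELOVL6 and 74.1% below MVK, against 42.7%, 33.5% and 65.1% by height. Among intervals with the same CpG island and promoter marks the shares were 47.8%, 38.0% and 48.7%, and among intervals with an assigned gene they were 40.6% for SCD, 32.0% for ELOVL6 and 63.2% for MVK. The 10 synthesis genes with an interval became 4 at or above the median height, beside 5.67% of all named genes, 2 within 1 kb of their own start, beside 2.31%, and 6 with intervals of a single gene, beside 4.78%. MVK is among the 4 and the 2 by choice, and SCD and ELOVL6 are not among them. SCD and ELOVL6 are among the 6 by choice, and MVK is not. The counts of 4, 2 and 6 were not repeated without the chosen genes. Nothing is therefore read from them beside the shares of all named genes. The count of synthesis genes with an interval was 10 without input intervals, beside 9.28% of all named genes. It was 9, without SCD, when an interval had to lie inside the gene or at most 10 kb from its start, beside 7.86%. SCD, ELOVL6 and MVK are among the 10 by choice, and ELOVL6 and MVK among the 9, so nothing is read from these counts. Counts with older symbols, without SCD, ELOVL6 and MVK, and of distinct intervals were added after the data were seen. Neighbours of MVK numbered 0 within 500 kb and 9 within 2 Mb, and ELOVL6 had 1 within 2 Mb. Depth is unknown, so what a height of this size could miss cannot be stated. No paired analysis was possible because each group has 1 library.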

Other observations

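A few intervals beyond 1 Mb, chosen after their values were seen, lay at genes of fatty acid metabolism or next to ELOVL6, among others that are not described. The interval of HADH, a dehydrogenase of fatty acid oxidation, lay 2030 kb from the ELOVL6 summit on chromosome 6, with a height of 21 and 20089 bp inside the gene. It was the nearest PPARG interval on that side of ELOVL6. On the other side the nearest, with 19, lay 1068 bp upstream of TIFA and was also assigned to LOC101119564. The interval of ELOVL3 lay 1620 kb from that of SCD on chromosome 22.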
